A study of Mus musculus with 12 samples.

Results

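The data describe 10 genes of the Toll-like receptor pathway among the 24421 genes listed for 12 RNA-seq libraries of mouse bone marrow macrophages (BMMs). The 10 genes are the receptors Tlr1, Tlr2, Tlr4, Tlr6, Tlr8 and Tlr13, the lipopolysaccharide co-receptors Cd14 and Ly96, and the adaptors Myd88 and Ticam1. They were chosen by name, and all 10 passed the filter on low values in every comparison. BMMs were grown from marrow of the femur and tibia with the growth factor M-CSF for 3 days and were then left unstimulated (basal) or given RANKL, the cytokine that drives macrophages to become osteoclasts, for 5 days. All mice were labelled C57BL/6 and all carried LysMcre(+), a Cre recombinase driven by the lysozyme M promoter, which is active in myeloid cells. WT was Mir182+/+LysMcre(+), KO was Mir182flox/floxLysMcre(+) (Mir182ΔM/ΔM, in which myeloid cells lose the microRNA gene Mir182), Control was LysMcre(+) alone and mTg was LSL-Mir182LysMcre(+) (Mir182mTg, in which Cre removes a stop cassette and Mir182 is overexpressed). WT and KO were sampled in the basal state and with RANKL, Control and mTg in the basal state, each with 2 libraries. Ages and numbers of the mice of these libraries were not given in the sources used here, so p-values measure the spread between these libraries. The libraries of a condition come from separate batches, as described under the processing. Without a term for the replicate number, the difference between batches is part of that spread.

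Toll-like receptors are membrane proteins that recognise microbial molecules. TLR2 pairs with TLR1 or TLR6 at the cell surface to bind lipoproteins, and TLR4 binds lipopolysaccharide with the help of CD14 and of MD-2, the product of Ly96. TLR8 and TLR13 sit in endosomes, where mouse TLR13 binds a stretch of bacterial ribosomal RNA. MyD88 relays signals from most of these receptors to NF-kB, while TRIF, the product of Ticam1, serves TLR3 and TLR4 and leads to interferon production. Macrophages express many of these receptors, and osteoclasts arise from the same precursors.

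The deleted or added gene encodes miR-182-5p, and its sequence is shown because the members were searched for matches to its seed. RefSeq places the mature strand at chr6:30165962-30165986 of GRCm38.p6, on the minus strand, and bases 2 to 8 (the seed) are in capitals.
mmu-miR-182-5p: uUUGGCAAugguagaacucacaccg
Matches to the seed, either TTGCCAA (pairing with bases 2 to 8) or TGCCAAA (bases 2 to 7 followed by an A), were counted in the 3′ UTRs of GENCODE vM21 transcripts on the sense strand. Of the 10 members, Tlr4 alone had a match, beside 18.6% of the 19484 listed genes with an annotated 3′ UTR. Both places lie in the 3′ UTR of the transcript ENSMUST00000107365.2, at chr4:66929174-66929180 and chr4:66929367-66929373 of GRCm38 on the plus strand, and are shown with the match in capitals.
Tlr4 first match: attgctgtcctTTGCCAAaggcctttgtc
Tlr4 second match: cttgagttcacTTGCCAAgctatttgaag
The other coding transcript of Tlr4, ENSMUST00000048096.11, ends its 3′ UTR of 1321 bases at position 66842800, 86373 bp before the first match, and holds no match. Gene-level values do not separate the pair of transcripts. The longest annotated 3′ UTRs of the other members ran from 58 bases for Tlr8 to 1111 bases for Tlr6. A match of letters is a description and shows no binding.

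Promoters are shown for the members at either end of the RANKL response in KO cells, Tlr2, which was higher with RANKL, and Tlr8 and Tlr13, which fell most. Each stretch runs 250 bases before to 50 bases after the RefSeq gene start on GRCm38.p6, 5′ to 3′ on the strand of the gene, and capitals mark matches to the motifs named after them.
Tlr2 (chr3:83841559-83841858, minus strand): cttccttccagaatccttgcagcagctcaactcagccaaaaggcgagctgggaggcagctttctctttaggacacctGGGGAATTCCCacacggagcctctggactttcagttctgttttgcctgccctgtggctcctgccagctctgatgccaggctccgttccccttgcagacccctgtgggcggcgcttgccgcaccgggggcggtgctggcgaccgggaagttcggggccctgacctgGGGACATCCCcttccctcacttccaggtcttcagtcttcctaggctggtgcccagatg
Tlr8 (chrX:167264280-167264579, minus strand): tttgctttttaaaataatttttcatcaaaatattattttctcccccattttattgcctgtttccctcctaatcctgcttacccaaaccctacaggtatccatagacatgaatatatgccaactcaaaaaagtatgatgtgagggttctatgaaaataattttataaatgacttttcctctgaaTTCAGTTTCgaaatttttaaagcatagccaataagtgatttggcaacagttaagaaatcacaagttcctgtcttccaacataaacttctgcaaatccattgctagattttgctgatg
Tlr13 (chrX:106143025-106143324, plus strand): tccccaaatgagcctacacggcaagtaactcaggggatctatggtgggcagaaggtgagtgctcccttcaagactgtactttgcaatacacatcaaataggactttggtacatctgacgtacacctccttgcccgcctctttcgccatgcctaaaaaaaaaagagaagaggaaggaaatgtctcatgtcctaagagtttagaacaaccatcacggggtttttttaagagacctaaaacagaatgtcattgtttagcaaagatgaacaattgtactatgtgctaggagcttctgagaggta
Promoters of 7 members were in the RefSeq table, 9 promoters in all. They were searched on both strands for the NF-kB motif, for GAAANNGAA (a repeat bound by interferon regulatory factors), for GAGGAAGT (an ETS core of the kind bound by PU.1) and for TGANTCA (AP-1), which 8.46%, 8.56%, 3.202% and 7.81% of the 32851 promoters in that table held. The NF-kB motif matched the Tlr2 promoter at bases -173 to -163, where overlapping matches run together, and at -8 to 1, counted from the start base as 0. GAAANNGAA matched Tlr8 at -67 to -59, Myd88 at -40 to -32 and Tlr6 from -115 to -101, the last as overlapping matches. GAGGAAGT matched Tlr1 at -23 to -16. Tlr13 and Ticam1 held none of the 4 motifs in this window, which says only that these letters are absent from it.

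Totals ran from 24951280 to 33050619 reads per library, so that 3 reads correspond to 0.0908 to 0.120 CPM (reads scaled to a common total of 1e+06 per library), far below every value given here for the members. The row of Mir182 held 79 and 123 reads in the mTg libraries and 0 in the Control libraries. It held at most 1 read in any WT or KO library, so this row could not check the deletion. Macrophage markers were present in all 12 libraries, with a summed level of 5743.62 to 8602.78 CPM over 7 genes. Summed osteoclast markers (8 genes) were 116 to 168 CPM in all basal libraries, 10548.6 to 10762.3 CPM in WT RANKL and 3154.6 to 3182.92 CPM in KO RANKL. The summed markers of B cells, of T or NK cells, of erythroid cells and of mast cells or basophils did not exceed 0.363 CPM in any library. Those of neutrophils (6 genes listed) summed to 5.59 to 113 CPM, of dendritic cells to 0.917 to 3.38 CPM and of endothelial cells to 0.479 to 6.04 CPM. Collagen and other stromal markers summed to 1.36 to 35.1 CPM and were higher in replicate 2 of each condition, as was the ribosomal precursor Rn45s, by 10.8 to 18.8 times. Their part in the results was not tested.

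The WT RANKL libraries stood apart from the other libraries of the WT and KO experiment. Lyz2, the lysozyme M gene into whose locus LysMcre is inserted, was at 22.5 to 44.0 CPM in the 6 libraries of WT basal, KO basal and KO RANKL and at 4117 to 7062 CPM in the 6 libraries of WT RANKL, Control and mTg. Ifi202b, an interferon-inducible gene, was at 82.1 to 152 CPM in the former and at 0 to 1.12 CPM in the latter. What sets the level of either gene in these libraries was not tested, and Ifi202b is not read here as a measure of interferon. The WT RANKL libraries thus matched the Control and mTg libraries in both genes and not the WT basal libraries with which they share a label. This difference and the response of WT cells to RANKL cannot be told apart within the WT libraries. For the members, WT RANKL against WT basal and the interaction are therefore also given with Control basal as the baseline. For other pathway genes this is done where it changes a call or moves a value by over 1.5 times. KO RANKL against KO basal, KO basal against WT basal, and mTg against Control each stay within a single range of Lyz2 and Ifi202b as given above. Within that range both genes still differed in KO RANKL against KO basal by limma. Lyz2 had -0.48 (log2, adjusted p = 0.00190) and Ifi202b 0.69 (adjusted p = 0.00293).

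**Figure D1:**
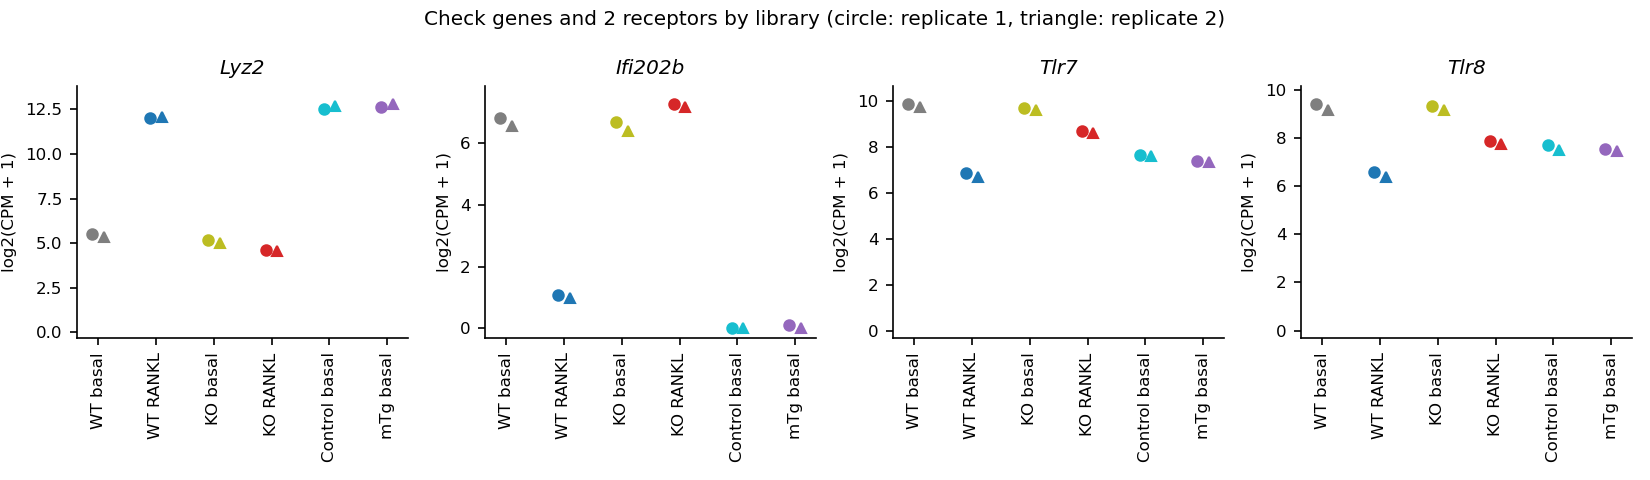
Log2(CPM + 1) of Lyz2, Ifi202b, Tlr7 and Tlr8 in each of the 12 libraries, 2 per condition (circle, replicate 1; triangle, replicate 2). WT RANKL sits with Control basal and mTg basal for Lyz2 (4117 to 7062 CPM) and Ifi202b (0 to 1.12 CPM), apart from WT basal, KO basal and KO RANKL.

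The sum of the 10 transcripts, though not each of them, was lower in RANKL than in basal libraries of WT and KO. Their summed level was 1974.13 to 2069.47 CPM in WT basal and 1966.89 to 2033.27 CPM in KO basal, against 686 to 688 CPM in WT RANKL and 1057.65 to 1099.47 CPM in KO RANKL. Control and mTg lay between, at 1441.42 to 1443.05 and 1379.16 to 1407.63 CPM. Tlr8 and Tlr13 held most of the sum in WT basal (means of 628 and 661 CPM) and in KO basal (615 and 725 CPM). The sum thus describes Tlr8 and Tlr13 more than the other members. Per transcript length (RPKM, the CPM divided by the length in kilobases), Tlr8 stood highest of the 10 in WT basal at a mean level of 199 RPKM, and Tlr6 lowest at 10.03 RPKM. Tlr13 stood highest in Control at 179.5 RPKM and in KO RANKL at 77.0 RPKM, and Myd88 in WT RANKL at 45.8 RPKM. In bulk RNA, fewer cells of a type and less RNA per cell cannot be told apart.

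**Figure D2:**
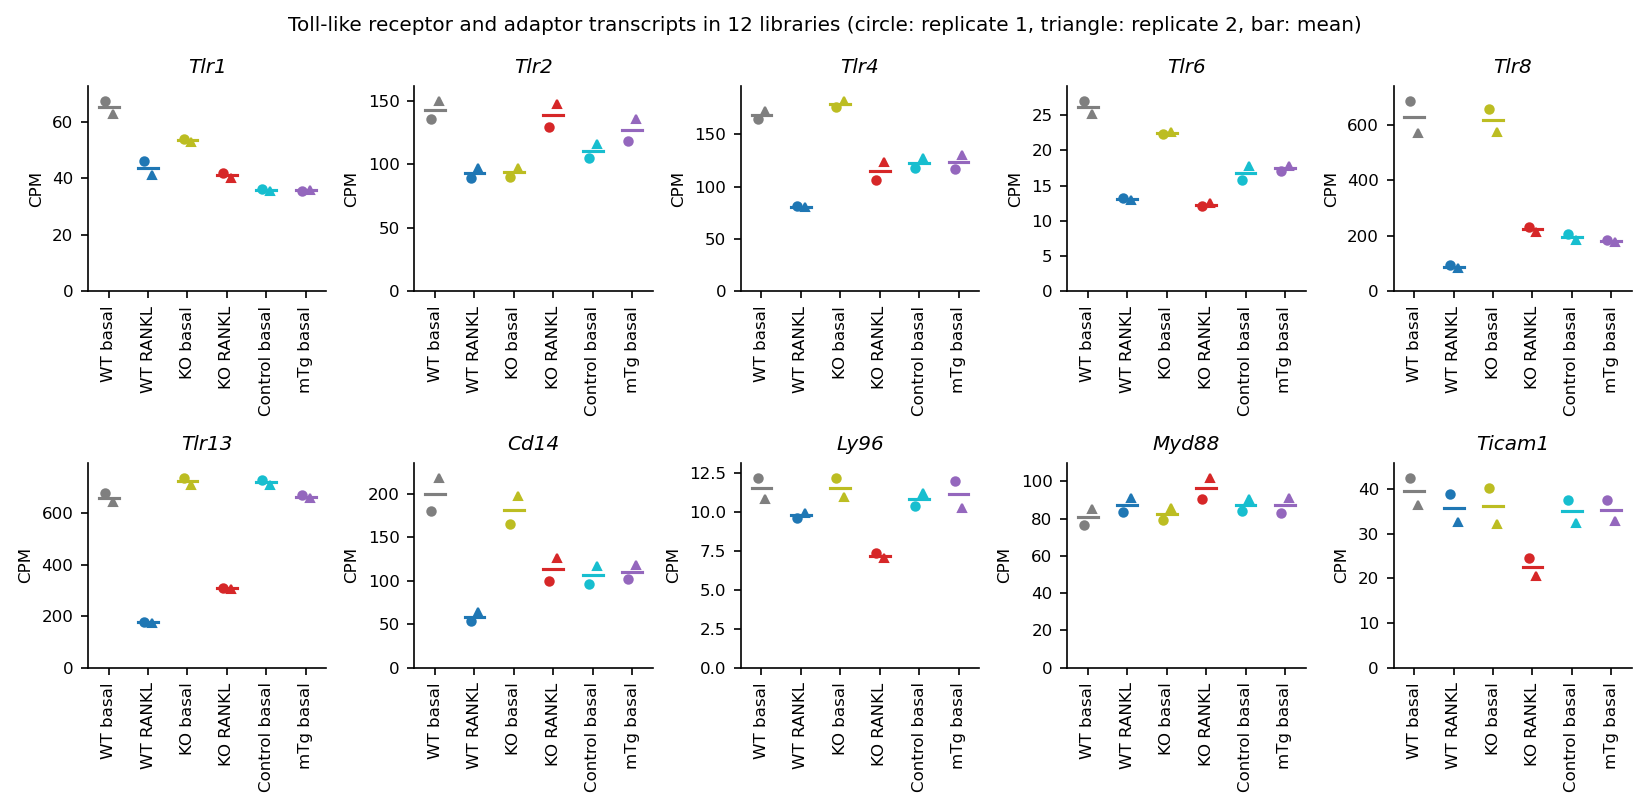
CPM of each of the 10 genes in the 12 libraries (circle, replicate 1; triangle, replicate 2; bar, mean of 2), with each vertical axis starting at 0. Tlr8, Tlr13 and Cd14 sit lowest in WT RANKL, with means of 88.6, 176 and 58.5 CPM, whereas Myd88 stays between 76.5 and 102 CPM throughout.

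Among the surface receptors, Tlr2 (chr3:83836272-83841767, minus strand, coordinates here and below from GRCm38 and GENCODE vM21) encodes the shared partner of the lipoprotein receptors. Its libraries read 136 and 149.9 CPM in WT basal, 89.2 and 97.4 in WT RANKL, 90.2 and 97.4 in KO basal, 129.8 and 147 in KO RANKL, 105 and 116 in Control, and 119 and 136 in mTg. WT basal and KO RANKL were thus the high conditions and overlapped with each other, WT RANKL and KO basal the low ones and overlapped likewise, and Control and mTg did not overlap. Tlr1 (chr5:64924679-64933563, minus strand) encodes 1 of the partners of TLR2. Its levels were 67.3 and 62.9 CPM in WT basal, 46.2 and 41.3 in WT RANKL, 54.0 and 53.0 in KO basal, 42.0 and 40.1 in KO RANKL, 36.3 and 35.6 in Control, and 35.6 and 35.7 in mTg. WT basal was the highest and KO basal the next, and neighbours in the order overlapped between the RANKL groups and between Control and mTg. Tlr6 (chr5:64952031-64960097, minus strand), the other partner, lies 18467 bp from Tlr1. Its levels were 27.0 and 25.2 CPM in WT basal, 13.3 and 13.0 in WT RANKL, 22.3 and 22.6 in KO basal, 12.1 and 12.5 in KO RANKL, 15.8 and 17.8 in Control, and 17.1 and 17.8 in mTg. The order of the conditions was KO RANKL, WT RANKL, Control, mTg, KO basal and WT basal from low to high, and only Control and mTg overlapped. Their longest coding transcripts share 454 windows of 50 bases, which are 15.3% of the windows of Tlr1 and 12.5% of those of Tlr6, so that the split of reads between this pair is uncertain. No other pair of the 45 pairs of members shared such a window.

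Tlr4 (chr4:66827584-66930284, plus strand) encodes the signaling chain of the lipopolysaccharide receptor. It was at 164 and 172 CPM in WT basal, 81.2 and 80.3 in WT RANKL, 176 and 182 in KO basal, 107 and 123 in KO RANKL, 118 and 128 in Control, and 117 and 131 in mTg. WT RANKL was the lowest and KO basal the highest, both apart from all other conditions, and KO RANKL, Control and mTg overlapped in the middle. Cd14 (chr18:36725067-36726798, minus strand) encodes the protein that hands lipopolysaccharide to TLR4 and MD-2. Its levels were 180.0 and 218 CPM in WT basal, 53.5 and 63.5 in WT RANKL, 165 and 197 in KO basal, 100.1 and 126 in KO RANKL, 96.3 and 116 in Control, and 102 and 118 in mTg. Cd14 thus had the same lowest condition as Tlr4, its 2 RANKL groups did not overlap, and its 2 high conditions, WT basal and KO basal, did. Ly96 (chr1:16688051-16709611, plus strand) was the least abundant member by reads. It was at 12.2 and 10.8 CPM in WT basal, 9.62 and 9.93 in WT RANKL, 12.2 and 10.9 in KO basal, 7.36 and 7.04 in KO RANKL, 10.4 and 11.2 in Control, and 11.98 and 10.3 in mTg. All 4 basal conditions overlapped with a neighbour, and KO RANKL was the lowest with no overlap.

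The endosomal receptors Tlr8 and Tlr13 had the widest ranges. Tlr8 (chrX:167242696-167264329, minus strand) was at 685 and 571 CPM in WT basal, 94.7 and 82.5 in WT RANKL, 655 and 575 in KO basal, 233 and 213 in KO RANKL, 208 and 184 in Control, and 186 and 178 in mTg. Its means spanned 7.09-fold between WT RANKL and WT basal, and WT basal and KO basal overlapped, as did Control and mTg. The Control libraries of Tlr8 lay far below those of WT basal, by 3.203-fold in the means, although both are unstimulated BMMs with an intact Mir182 gene. Tlr13 (chrX:106143204-106160493, plus strand) was at 679 and 643 CPM in WT basal, 178 and 175 in WT RANKL, 739 and 711 in KO basal, 311 and 307 in KO RANKL, 729.8 and 711 in Control, and 671 and 658 in mTg. Unlike Tlr8, it was at 643 to 739 CPM in all 8 basal libraries, and both RANKL groups stood below them without overlap.

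**Figure D3:**
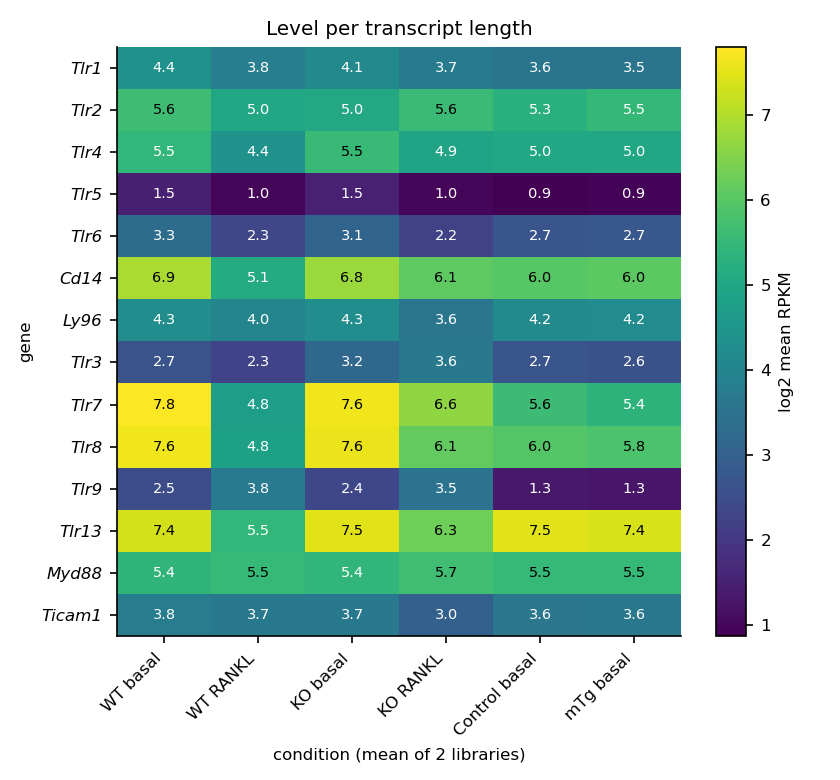
Log2 of the mean RPKM (2 libraries per condition) of the 10 genes and of Tlr3, Tlr5, Tlr7 and Tlr9, with surface receptors and co-receptors at the top, endosomal receptors below them and adaptors at the bottom. Tlr7, Tlr8 and Tlr13 hold the brightest cells in WT basal and KO basal, and Tlr13 stays bright in Control and mTg, where its mean was 179.5 and 165 RPKM.

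Of the adaptors, Myd88 varied least of the 10 members, while the means of Ticam1 spanned 1.75-fold. Myd88 (chr9:119335934-119341411, minus strand), whose exons overlap those of Acaa1a on the opposite strand and whose reads cannot be told apart from it without strand, was at 76.5 and 85.3 CPM in WT basal, 83.5 and 91.0 in WT RANKL, 79.1 and 85.7 in KO basal, 90.7 and 102 in KO RANKL, 84.0 and 90.6 in Control, and 83.2 and 91.1 in mTg. Its means spanned 1.19-fold over the 6 conditions, the narrowest range of the 10, with KO RANKL at the top. Ticam1 (chr17:56269319-56276786, minus strand) was at 42.5 and 36.5 CPM in WT basal, 38.9 and 32.7 in WT RANKL, 40.3 and 32.3 in KO basal, 24.7 and 20.5 in KO RANKL, 37.6 and 32.4 in Control, and 37.5 and 32.9 in mTg. KO RANKL was below all other libraries, and the other 5 conditions overlapped with their neighbours.

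In KO cells RANKL was accompanied by lower levels of 8 of the 10 members and a higher level of Tlr2. This comparison, which asks how the pathway behaves on RANKL when Mir182 is deleted, was tested with limma on log2(CPM + 1), with Benjamini-Hochberg adjusted p-values over all 11691 genes tested and a threshold of 0.05, as were all WT and KO comparisons. Over all genes tested, 30.4% were called higher and 26.4% lower. Tlr8 fell by 1.46 ± 0.12 (log2, SE; adjusted p = 4.68e-05), which is 2.76-fold in the means. Tlr13 fell by 1.23 ± 0.06 (adjusted p = 3.77e-06), or 2.35-fold. Among the surface receptors, Tlr6 fell by 0.82 ± 0.08 (adjusted p = 1.18e-04), Tlr4 by 0.64 ± 0.08 (adjusted p = 4.38e-04) and Tlr1 by 0.38 ± 0.08 (adjusted p = 0.00587). The co-receptors fell alongside, Cd14 by 0.67 ± 0.16 (adjusted p = 0.00864) and Ly96 by 0.61 ± 0.10 (adjusted p = 0.00156), and so did Ticam1, by 0.66 ± 0.15 (adjusted p = 0.00840). Tlr2 rose by 0.56 ± 0.09 (adjusted p = 0.00180), with a ratio of means of 1.48 and the same direction in both replicates. Myd88 had a log2 difference of 0.22 ± 0.09 that missed the threshold (adjusted p = 0.0803); with the replicate number as a block it passed (adjusted p = 2.50e-05), and over 18 alternatives its adjusted p ranged from 2.50e-05 to 0.343. Cd14 lost its call without KO basal replicate 2 (adjusted p = 0.0542) or KO RANKL replicate 1 (0.0546), the latter the highest of its 18 alternatives, whose lowest was 1.73e-15. Ticam1 lost its call without KO basal replicate 1 (adjusted p = 0.0527) or KO RANKL replicate 2 (0.0554), within a range of 3.94e-11 to 0.0554. In the same comparison 7 of 8 osteoclast markers were higher, by 4.52 (log2) in the median of the list, 3 of 7 macrophage markers were lower (6 with the block), and summed neutrophil markers were 95.3 to 101 CPM in KO basal and 5.59 to 5.81 CPM in KO RANKL. Their part was not tested.

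In the libraries labelled WT, 7 of the 10 members were lower with RANKL than in the basal state and none was higher, beside 22.0% of all genes called lower and 40.6% called higher. The median of the 10 was -0.77 (log2), against 0.19 for all genes tested. Tlr8 fell by 2.81 ± 0.12 (adjusted p = 1.72e-06), a 7.09-fold difference in the means, Tlr13 by 1.90 ± 0.06 (adjusted p = 4.14e-07) and Cd14 by 1.75 ± 0.16 (adjusted p = 6.73e-05). Tlr4 fell by 1.05 ± 0.08 (adjusted p = 2.94e-05), Tlr6 by 0.94 ± 0.08 (adjusted p = 4.78e-05), Tlr2 by 0.61 ± 0.09 (adjusted p = 0.001003) and Tlr1 by 0.56 ± 0.08 (adjusted p = 6.90e-04). Ly96 (-0.21), Ticam1 (-0.14) and Myd88 (0.11) did not pass; with the replicate block they did, at adjusted p of 0.0344, 0.0278 and 0.0139, and over 18 alternatives the highest adjusted p of these 3 genes were 0.387, 0.946 and 0.833 and the lowest 1.41e-04, 2.39e-06 and 0.0139. TMM scaling, which corrects for a few abundant genes, moved the median of all genes in this comparison by -0.19 and the shares called from 4741 higher and 2571 lower to 3349 and 3571. With the block and TMM factors together Myd88 was called lower (-0.099, adjusted p = 0.0204). Macrophage markers were lower too, by 0.64 in the median of the 7 genes, of which 6 passed, and osteoclast markers higher, by 6.98 in the median of 8 genes, and the part of either in these results was not tested.

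Set against Control basal, to which WT RANKL is closer in Lyz2 and Ifi202b, Tlr13, Tlr8, Cd14, Tlr4 and Tlr6 were still called lower, and Tlr1 and Tlr2 were not. This baseline was chosen after the data had been seen and crosses experiments, with limma over all 12 libraries, in which 29.6% of 11794 genes were called higher and 23.1% lower. Tlr13 was lower by 2.02 ± 0.05 (log2, SE; adjusted p = 3.15e-09), close to its value against WT basal. Tlr8 fell by 1.14 ± 0.11 (adjusted p = 2.64e-05), which is less than against WT basal, as the Control libraries held less of it. Cd14 fell by 0.85 ± 0.16 (adjusted p = 0.00167), Tlr4 by 0.60 ± 0.08 (adjusted p = 2.45e-04) and Tlr6 by 0.33 ± 0.08 (adjusted p = 0.00597). Tlr1 turned direction and was higher by 0.27 ± 0.07 (adjusted p = 0.00914), and Tlr2 had -0.24 ± 0.10 (adjusted p = 0.0681). Myd88, Ly96 and Ticam1 had differences of -0.0016, -0.13 and 0.032 that did not pass. With the replicate block in this fit Tlr2 passed too (adjusted p = 9.61e-07). Of the 10 members, Tlr4, Tlr6, Tlr8, Tlr13 and Cd14 were thus lower with RANKL in KO cells and, by either baseline, in WT RANKL.

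**Figure D4:**
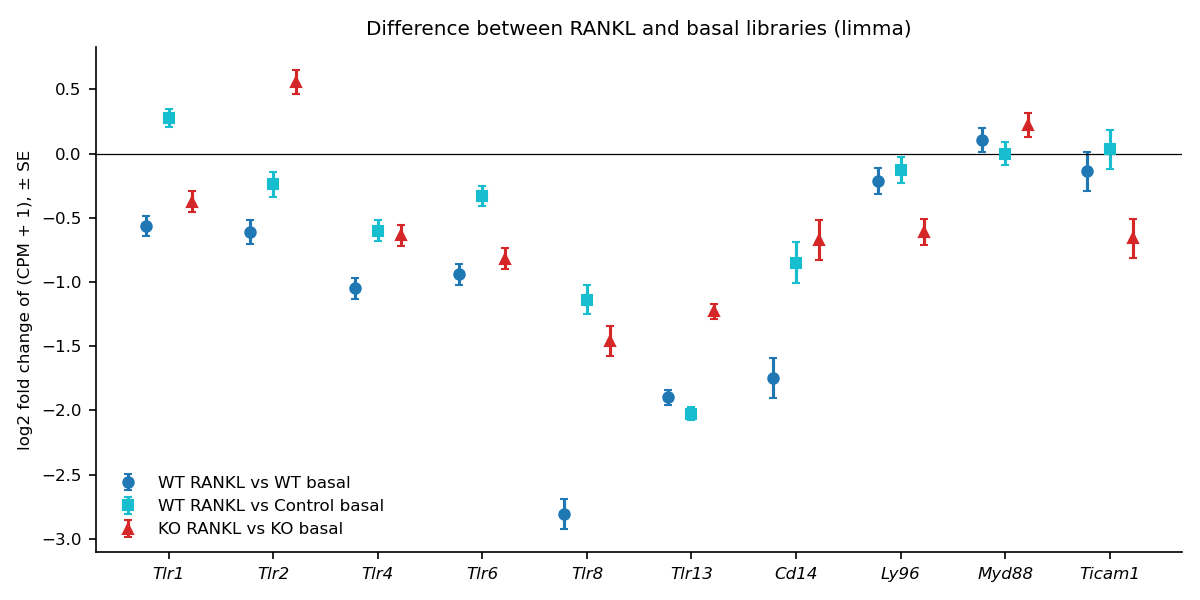
Log2 fold change of (CPM + 1) with its SE between RANKL and basal libraries for each of the 10 genes, with 2 libraries a group, for WT RANKL against WT basal, WT RANKL against Control basal and KO RANKL against KO basal. Tlr8 spans -2.81, -1.14 and -1.46 over the 3 comparisons, Tlr13 -1.90, -2.02 and -1.23, and Tlr2 is above 0 only in KO, at 0.56.

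With RANKL, 5 of the 10 members were higher in KO than in WT libraries and 2 were lower. The question is whether deletion of Mir182 alters receptor transcripts during osteoclast formation, and the comparison carries the difference in Lyz2 and Ifi202b described above, so that genotype and this difference cannot be told apart in it. Over all genes, 14.3% were called higher and 30.9% lower. Tlr8 was higher by 1.32 ± 0.12 (log2, SE; adjusted p = 1.37e-04), or 2.52-fold in the means, and Tlr13 by 0.81 ± 0.06 (adjusted p = 4.95e-05), or 1.75-fold. Cd14 was higher by 0.94 ± 0.16 (adjusted p = 0.00269), Tlr2 by 0.56 ± 0.09 (adjusted p = 0.00247) and Tlr4 by 0.50 ± 0.08 (adjusted p = 0.00213). Ticam1 was lower by 0.64 in log2 (-0.64 ± 0.15, adjusted p = 0.0125) and Ly96 by 0.39 (-0.39 ± 0.10, adjusted p = 0.0162). Tlr1 (-0.09), Tlr6 (-0.08) and Myd88 (0.14) did not pass, the last passing with the replicate block (adjusted p = 0.00268; 3.28e-07 to 0.719 over 18 alternatives). In this comparison TMM factors moved the median of all genes by 0.14, from -0.14 to -0.01, and the calls from 1668 higher and 3607 lower to 2405 and 2391. They left the 5 higher members called, added Myd88 (0.29, adjusted p = 0.0490) and ended the call of Ly96 (adjusted p = 0.0717; 5.58e-04 to 0.300 over 18 alternatives), and the differences of Tlr1 and Tlr6, uncalled, changed sign. Without any 1 of the 4 RANKL libraries, WT RANKL replicate 1 or 2 or KO RANKL replicate 1 or 2, Ly96 also missed the threshold (adjusted p = 0.0559, 0.0791, 0.0527 and 0.0766). Ticam1 missed it without WT RANKL replicate 1 (adjusted p = 0.0713) or KO RANKL replicate 2 (0.0751), within a range of 1.73e-09 to 0.0751. Beside these values, 7 of 8 osteoclast markers were lower in KO RANKL, by 2.16 (log2) in the median of the list, and of the 7 macrophage markers 2 were higher and 1 lower (3 and 3 with the block), with a median of -0.03, and their part was not tested.

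In the basal state 1 member was called different between KO and WT libraries by the fit without the replicate block. Tlr2 was lower in KO by 0.60 in log2 (-0.60 ± 0.09, adjusted p = 0.0195), at a ratio of means of 0.657, with no overlap and the same direction in both replicates, beside 2.71% of all genes called higher and 1.10% called lower. The call was lost without any 1 of the 4 basal libraries, WT basal replicate 1 or 2 or KO basal replicate 1 or 2 (adjusted p = 0.0630, 0.124, 0.147 and 0.0883), and over 18 alternatives the adjusted p ranged from 1.74e-12 to 0.147. With the replicate number as a block, 18.6% of all genes were called higher and 12.7% lower, and 4 further members passed. Tlr1 (-0.28, adjusted p = 1.48e-04; 1.92e-05 to 0.428 over 18 alternatives), Tlr6 (-0.21, 0.0347; 0.00906 to 0.637) and Cd14 (-0.14, 0.00570; 9.69e-04 to 1) were then called lower. Tlr13 (0.13, 0.00114; 7.60e-04 to 0.758) was called higher. All 4 differences are under 1.22-fold in the means.

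**Figure D5:**
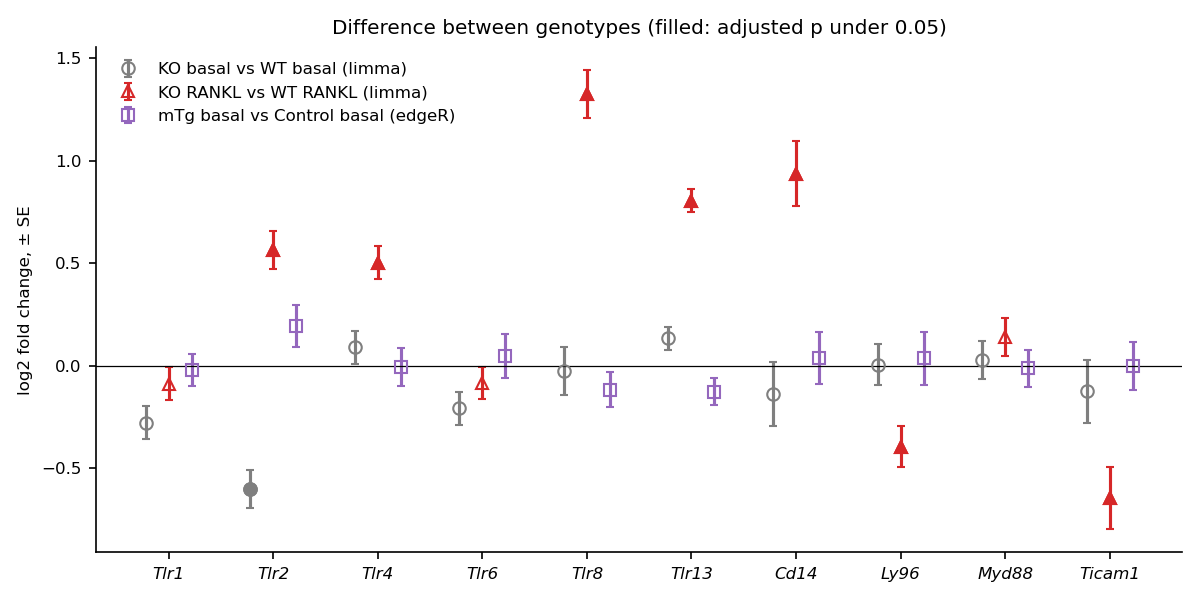
Log2 fold change with its SE between genotypes for each of the 10 genes, with 2 libraries a group, filled where the adjusted p was under the threshold. With RANKL, KO lies above WT for Tlr2, Tlr4, Tlr8, Tlr13 and Cd14 (0.50 to 1.32) and below it for Ly96 and Ticam1, in the basal state Tlr2 alone is filled (-0.60), and no mTg value is filled.

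The response to RANKL differed between KO and WT libraries for 5 members, all with a higher value in KO, beside 7.44% of all genes called higher and 17.1% called lower for the interaction. Tlr8 had a difference of responses of 1.35 ± 0.17 (log2, SE; adjusted p = 0.00138), Tlr2 1.17 ± 0.13 (adjusted p = 9.42e-04), Cd14 1.07 ± 0.22 (adjusted p = 0.0125), Tlr13 0.67 ± 0.08 (adjusted p = 0.00129) and Tlr4 0.41 ± 0.11 (adjusted p = 0.0375). For Tlr2 the responses had opposite signs, -0.61 in WT and 0.56 in KO, whereas the other 4 fell in both genotypes, and by less in KO. TMM factors moved the median of all genes in this interaction by 0.15 and the calls from 870 higher and 2005 lower to 1223 and 1287. With the replicate block, 16.1% of all genes were called higher and 42.8% lower and 8 members passed, with the addition of Tlr1 (0.19, adjusted p = 0.0231; 1.17e-04 to 0.589 over 17 alternatives), Ly96 (-0.40, 0.0107; 0.0107 to 0.619) and Ticam1 (-0.52, 1.08e-05; 1.08e-05 to 0.343). The call of Tlr4 was lost when WT basal replicate 1 or 2, WT RANKL replicate 1 or 2, KO basal replicate 1 or 2 or KO RANKL replicate 2 was left out (adjusted p = 0.0685, 0.107, 0.0954, 0.106, 0.116, 0.0885 and 0.0872), within a range of 8.29e-09 to 0.116. This interaction rests on the WT RANKL libraries. With Control basal in the place of WT basal, Tlr2 (0.80, adjusted p = 0.00135) and Tlr13 (0.80, 2.25e-05) stayed called, and Cd14 (0.18, 0.556), Tlr4 (-0.036, 0.821) and Tlr8 (-0.32, 0.127) did not. The other calls of that fit were lower values in KO, for Tlr1 (-0.65, 6.28e-04), Tlr6 (-0.49, 0.00587), Ly96 (-0.48, 0.0211) and Ticam1 (-0.69, 0.0242). With the block added to that fit, Cd14 (adjusted p = 0.00309), Tlr8 (4.08e-06) and Myd88 (0.22, 4.47e-04) passed as well, Tlr8 with the lower value in KO. The median of all genes in the fit without the block was -0.059. The shares of all genes called with Control basal in this interaction are not given, so the number of members called is not read against a background. The WT and KO comparisons share libraries, so they are not independent of each other.

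Overexpression of Mir182 in basal macrophages was not accompanied by a called difference in any of the 10 members. With edgeR's quasi-likelihood test on counts, 0 of the 10 passed and 0 had an unadjusted p under 0.05, and DESeq2 and limma also called 0, beside 0.0993% of the 12081 genes tested called higher in mTg than in Control and 0.157% lower. The log2 differences ran from -0.13 ± 0.07 for Tlr13 to 0.20 ± 0.10 for Tlr2. By the same edgeR test the row of Mir182 itself, with a log2 difference of 9.64, missed the threshold (adjusted p = 0.0833). A missing call in this comparison therefore does not show that a member was unchanged. With the replicate number as a block, which called 6.94% of all genes higher and 8.15% lower, 3 members passed. Tlr2 was higher in mTg (0.19, adjusted p = 0.00104; 0.00104 to 0.999936 over 11 alternatives), and its libraries read 119 and 136 CPM in mTg against 105 and 116 in Control. Tlr13 (-0.13, 0.00368; 0.00368 to 0.999936) and Tlr8 (-0.12, 0.0262; 0.0262 to 0.999936) were lower. Summed neutrophil markers were 102 to 113 CPM in mTg and 48.4 to 50.1 CPM in Control, and their part was not tested.

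The rest of the pathway, a list of 51 further genes of which 45 were tested in WT and KO libraries, moved in both directions. With RANKL in KO against WT, 16 were higher and 13 lower, beside 14.3% and 30.9% of all genes. The counts were 17 and 20 with the replicate block and 16 and 9 with TMM factors. With RANKL in WT 15 were higher and 19 lower, beside 40.6% and 22.0% of all genes against WT basal. The counts in WT were 20 and 22 with the block, 12 and 23 with TMM factors, and 15 and 17 of 46 against Control basal. In KO 13 were higher and 15 lower (16 and 20 with the block, 12 and 18 with TMM factors), beside 30.4% and 26.4%. These shares over all genes come from the fit without the block and are also the background of the counts per list that follow. Shares over all genes with the block are not given for these comparisons, so the counts with the block have no background beside them. Nothing particular to a list is read from any of these counts. Among the other Toll-like receptors, Tlr7, the endosomal receptor of single-stranded RNA next to Tlr8 on the X chromosome, was at 924 and 845 CPM in WT basal, 114 and 102 in WT RANKL, 818 and 776 in KO basal, 405 and 391 in KO RANKL, 198 and 190.1 in Control, and 167 and 159.5 in mTg. It followed the pattern of Tlr8 across the conditions, with Control and mTg far below WT basal. Its log2 differences were -3.02 (adjusted p = 2.47e-07) with RANKL in WT, -0.999 (4.18e-05) with RANKL in KO and 1.87 (5.42e-06) in KO RANKL against WT RANKL, and -0.84 (9.29e-06) in WT RANKL against Control basal. Tlr3, the receptor of double-stranded RNA that signals through TRIF, was at 28.6 and 25.7 CPM in WT basal, 21.7 and 19.7 in WT RANKL, 42.4 and 36.8 in KO basal, and 57.0 and 50.2 in KO RANKL. It fell by 0.38 in WT (adjusted p = 0.0203), rose by 0.43 in KO (0.0134) and was higher by 1.33 in KO RANKL than in WT RANKL (9.80e-05). Tlr9, the DNA receptor, was higher with RANKL in both genotypes, by 1.21 in WT (adjusted p = 3.02e-04; 2.30 against Control basal, 2.48e-06) and by 1.10 in KO (5.87e-04). Tlr5, the flagellin receptor, fell by 0.46 (0.00808) and 0.43 (0.0118), but had 0.071 in WT RANKL against Control basal (0.569), and Tlr11 and Tlr12 were under the filter, at no more than 0.281 and 0.112 CPM.

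Of the 4 genes of receptor folding and traffic, 3 were higher in KO RANKL than in WT RANKL, by small steps. They were Unc93b1 (0.27, adjusted p = 0.0418), which carries endosomal receptors to their place, and the chaperones Cnpy3 (0.26, 0.0194) and Cnpy4 (0.24, 0.0274). Of the 6 other adaptors and ligand transfer genes, 5 fell and 1 rose with RANKL in WT, and 4 fell in KO (5 with the block). Against Control basal, 3 of the 6 were lower in WT RANKL and 1 was higher. Cd36, a scavenger receptor that works with TLR2 and TLR6, fell by 2.39 in WT (adjusted p = 1.87e-07) and by 2.10 in KO (3.76e-07). Ticam2, the bridge between TLR4 and TRIF, fell by 0.81 (4.91e-04) and 0.90 (3.48e-04), and Tirap, the bridge to MyD88, by 0.40 (0.00519) and 0.47 (0.00275). Against Control basal Cd36 stayed lower (-2.77, 7.45e-10), while Ticam2 (-0.039, 0.765) and Tirap (-0.19, 0.0595) did not pass. Pik3ap1 was lower with RANKL in WT (-0.54, 1.14e-04) and had -0.11 in KO (0.127), which passed with the block (0.00203), and the responses differed by 0.44 (0.00651). Sarm1 rose by 1.48 in WT (8.69e-06), to 3.63 CPM in the mean, and had 0.15 in KO (0.189). Lbp was at no more than 1.26 CPM in the mean of any condition.

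Of the 16 kinases and ubiquitin ligases, 8 rose and 2 fell with RANKL in WT, near the background share of genes called higher, and 5 rose and 3 fell in KO. With the block these counts were 12 and 3 in WT and 7 and 4 in KO, and against Control basal 6 and 2 in WT. TMM factors brought them nearer to balance, with 5 higher and 4 lower in WT and 4 and 4 in KO. In KO RANKL against WT RANKL 3 were higher and 7 lower (3 and 11 with the block, 3 and 4 with TMM factors). Traf3, a ligase that holds back the alternative NF-kB route and helps interferon production, rose by 1.51 in WT (adjusted p = 1.06e-05) and by 2.01 in KO (3.55e-06). Irak4, the first kinase recruited by MyD88, fell in KO by 0.80 (7.35e-04) and was lower in KO RANKL than in WT RANKL (-0.76, 0.00140), as was Traf6 (-0.67, 0.00113), which also serves RANK, the receptor of RANKL. Ikbke, a kinase of interferon signaling, fell with RANKL in WT (-1.11, 9.64e-06; -0.30 against Control basal, 0.00268) and was higher in KO RANKL than in WT RANKL (0.70, 1.97e-04). Of the 11 inhibitors, 5 rose and 4 fell with RANKL in WT, against WT basal and against Control basal alike, and 4 rose and 4 fell in KO (6 and 5 in WT and 4 and 5 in KO with the block). Nfkbia, which encodes the NF-kB inhibitor IkBα and is itself induced by NF-kB, rose by 2.07 (1.53e-06) and 2.20 (1.49e-06), and Tnip1 by 1.75 (1.16e-05) and 1.30 (6.29e-05). Ly86, whose product pairs with CD180, fell by 2.45 in WT (2.77e-07), had -0.66 in WT RANKL against Control basal (6.11e-05) and was higher in KO RANKL than in WT RANKL by 1.87 (2.56e-06), and like Tlr7 it was low in Control, at 60.2 and 68.6 CPM, against 221 and 229 in WT basal. Sigirr was lower in KO RANKL than in WT RANKL (-1.34, 0.00140), as was Tnfaip3, a deubiquitinase that limits NF-kB (-0.98, 6.55e-05).

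The listed genes that Toll-like receptor signaling induces summed to between 11.1 CPM (WT RANKL replicate 1) and 71.6 CPM (mTg replicate 1) in the 12 libraries. Of 8 genes, 4 were tested, and Tnf, the largest of them, was at 22.3 and 23.0 CPM in WT basal, 7.82 and 9.75 in WT RANKL, 23.2 and 21.3 in KO basal, 16.5 and 16.7 in KO RANKL, 49.8 and 51.8 in Control, and 58.4 and 58.8 in mTg. It fell with RANKL by 1.28 in WT (adjusted p = 5.75e-05) and by 0.40 in KO (0.0184) and was higher in KO RANKL than in WT RANKL by 0.86 (8.20e-04), and WT RANKL lay below Control basal by 2.41 in log2 (-2.41, 5.48e-08). Nos2 and Il10, named after their values were seen because they made up the rest of the calls in KO RANKL against WT RANKL, were higher there by 2.12 and 0.70. Nos2, the inducible nitric oxide synthase, was at 4.76 and 4.09 CPM in KO RANKL and at no more than 0.252 CPM in any other library. Il6 was at 0 in all but 1 library, in which it was at 0.151 CPM.

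In the basal comparison of KO with WT, 2 of the 45 other pathway genes tested were called by limma. Cd36 was higher (0.32, adjusted p = 0.0296) and Nfkbia lower (-0.45, 0.0347), beside 2.71% of all genes called higher and 1.10% lower. With the replicate block 18 were called, 7 higher and 11 lower, beside 18.6% and 12.7% of all genes. For the interaction 13 were higher and 7 lower, 20 in all, beside 7.44% and 17.1% of all genes. With the block 35 were called, 17 higher and 18 lower, beside 16.1% and 42.8%. None of the 46 tested was called in mTg against Control by edgeR, beside 0.0993% of all genes called higher and 0.157% lower. With the block 7 were called there, 4 higher and 3 lower, beside 6.94% and 8.15%.

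By their profile over the 6 condition means on the log2(CPM + 1) scale, the members fell into more than a single pattern. Tlr8, Cd14 and Tlr4 were alike, with Pearson's r of 0.98 between Tlr8 and Cd14, 0.98 between Tlr4 and Cd14 and 0.97 between Tlr4 and Tlr8. Ly96 and Ticam1 formed another pair (r = 0.95), and Myd88 ran against both (-0.92 and -0.92). Ly96 and Ticam1 were lowest and Myd88 highest in KO RANKL, and the means of Myd88 spanned only 1.19-fold. Tlr2 had no r above 0.39 with any other member. Among 10290 genes at 5 CPM or more in at least 1 condition, the nearest profiles were those of Arhgap6, Ncoa7 and Laptm4a to Tlr8 (r = 0.992 to 0.994), of Ncoa7, Lamp1 and C1qb to Cd14 (0.994 to 0.997), and of Rnf141, Myo9a and Tnfrsf1a to Tlr13 (0.997). Nearest to Tlr4 were Nipa2, Rufy3 and Slc24a3 (0.995 to 0.996), to Tlr2 Zbtb2, Copz1 and Akr1b8 (0.924 to 0.968), to Tlr1 Kmo, Samd4 and Gigyf1 (0.993 to 0.995) and to Tlr6 Mex3b, Fam134c and Tpra1 (0.997 to 0.998). For Ly96 they were Fam173a and BC037034 (0.996 to 0.997), for Myd88 Ube2c, Pgk1 and Zfp948 (0.995 to 0.996) and for Ticam1 Galk2, Abhd14b and Dstyk (0.997 to 0.999). These values rest on 6 points that share libraries, with the nearest of many genes picked, and are a description.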

How the data were processed

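RNA of 12 BMM libraries was sequenced by Illumina. The protocol text of all 12 names poly-A selection, while replicate 2 is labelled total RNA, and which preparation was used for replicate 2 is not settled by the sources used here. The authors used TopHat or HISAT2 for alignment to the mm10 genome, took reads per gene from HTSeq, and computed CPM with edgeR and RPKM with Cufflinks. Per the labels, replicate 1 (polyA RNA, TopHat and Cufflinks) and replicate 2 (total RNA, HISAT2, HTSeq and edgeR) form separate batches. The annotation and the use of strand in counting are not given in the sources used here. The deposited files of the 8 WT and KO libraries hold CPM, those of the 4 Control and mTg libraries hold counts, which were scaled to CPM, and the 6 files of replicate 1 also hold RPKM from the authors, from whose fixed lengths the RPKM of replicate 2 was computed. The CPM were whole multiples of 1 read for 100% of values (tolerance 0.01 read), so reads were recovered, and edgeR on them called 4929 genes in KO RANKL against WT RANKL. Gene names turned into dates (27 rows) were kept under row numbers.

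Genes at 1 CPM or more in at least 2 of the 8 libraries were fitted with limma 3.58.1 (trend, 4 group means, log2(CPM + 1)), a scale that understates the change of low genes. The counts of Control and mTg were fitted with edgeR 4.0.16 (quasi-likelihood, TMM, filterByExpr) in R 4.3.3, and DESeq2 1.42.0 was an alternative. Calls used a Benjamini-Hochberg adjusted p of 0.05 and no fold limit. Totals of 24951280 to 33050619 reads set the counting error. The replicate numbers pair the samples: differences of replicate 2 from replicate 1 correlated with r of 0.686 to 0.754 over 15 pairs of conditions, so values with the replicate as a block are given for the members where a call changes, and for the other pathway genes as counts per list. The members and lists were chosen with earlier results of these data known. Named genes were all members, every further Toll-like receptor and adaptor, and genes from the up to 3 called per list and comparison with the largest change. The latter had one direction in both replicates and 5 CPM or more, and not every gene that met this rule is named in every comparison. Fits were also run on simulated counts that held no difference shared by a replicate number. That run does not show how the fits behave under the pairing of these libraries. The alternatives were other filters, pseudocounts (0.1 CPM), scalings, tools, the block and leaving out each library. 1 gene with a profile near that of Ly96 is not reported here.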

Additional observations from a re-analysis of the deposited data

Results flagged for a closer look

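The response to RANKL differed between KO and WT libraries by the test of the interaction for 5 members, which is why they are listed here. The value of KO minus WT was 1.35 (log2) for Tlr8, 1.17 for Tlr2, 1.07 for Cd14, 0.67 for Tlr13 and 0.41 for Tlr4. All 5 rest on the WT RANKL libraries, whose Lyz2 and Ifi202b levels were those of Control and mTg. With Control basal in the place of WT basal the values were -0.32 for Tlr8, 0.80 for Tlr2, 0.18 for Cd14, 0.80 for Tlr13 and -0.036 for Tlr4. Of these 5, Tlr2 and Tlr13 were past the threshold, and with the replicate block added so were Cd14 and Tlr8, the latter with the sign turned. The part of the difference between these libraries was not tested.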

How the results depend on the processing

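Of 1040 recomputed fold changes of the members, 952 kept their direction and side of the threshold, 49 newly passed, 27 no longer passed and 12 reversed. In KO basal against WT basal the 1 called member became 5 with the replicate block, 5 with the block and TMM factors, 5 with edgeR and the block, and 0 with the 4 basal libraries alone, and it ranged from 0 to 1 when libraries were left out. The 2 other pathway genes called there became 18, 20 and 20 with those block fits, 0 with no filter, 1 with quantile normalization, 0 with the basal libraries alone and 0 without any 1 library. For the interaction, the 5 members became 8 with the replicate block, 9 with the block and TMM factors, 9 with edgeR and the block, and 9 with Control basal as the baseline and the block, while the 20 pathway genes became 35 with the block, 39 with Control basal and the block, and 11 to 15 without 1 library. In mTg against Control, 0 members became 3 with the block, and 0 pathway genes became 7 with the block, 1 with no filter and 1 with DESeq2. Reversed values were those of Tlr1 with RANKL in WT against Control basal (0.27, with and without the block), of Myd88 in the same comparison against WT basal with the block (-0.10 with TMM factors and with edgeR), and of the interaction against Control basal for Tlr1 (-0.65), Tlr4 (-0.036), Tlr6 (-0.49) and Tlr8 (-0.32), with and without the block. The cause was not tested. The block also moved the total counts of called pathway genes in the other RANKL comparisons, by less than 1.5 times in each, as given beside them. Leaving 1 library out assumes that the remaining library varies like the other groups.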
